A study of Mus musculus with 9 samples.

Results

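In the embryonic midbrain, Pcp4, Tbc1d30, Fibcd1, Arpp21 and Dlg2 stood far lower in fetuses that lost Gpr161 in the Wnt1-Cre lineage than in controls. This held against either kind of control. These 5 genes, of 14029 genes tested and 21596 named rows of the expression table, were selected on the very values described here: each was picked because all 3 Gpr161 cKO values lay clearly below all 6 control values. The differences of Gpr161 cKO libraries from either control are therefore given for these 5 genes as a description, without a test. Their confidence intervals take no account of the choice and are not tests, and the sizes may be overstated. The contrast between both controls was tested. The rule asked nothing of the order of the controls, but all 6 control values entered it, and a low Cre control value narrows the separation it looks for, so that this contrast is not fully independent of the choice.

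RNA was taken from the midbrain of C57BL/6 mouse fetuses at E13.5, with 3 libraries in each of 3 groups. The floxed control was labelled Gpr161f/f and carried no Cre, the Cre control was labelled Gpr161f/+;Wnt1-Cre, and the Gpr161 cKO group was labelled Gpt161f/f;Wnt1-Cre (spelled so in the labels). Every library thus came from a fetus with at least 1 floxed allele, and the Cre control differed from the floxed control both in the transgene and in the loss of 1 Gpr161 allele, so that these influences cannot be told apart. Wnt1-Cre recombines in the dorsal neuroectoderm of the midbrain and in the neural crest, not in every midbrain cell, and the commonly used transgene is known to raise Wnt1 itself. Nothing in the sources said whether fetuses were pooled or came from separate litters, and p-values measure the spread between these libraries, which may be technical.

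Gpr161 is a receptor of the primary cilium that keeps cAMP and protein kinase A activity high there and so holds back Sonic hedgehog signaling, a pathway that keeps neural progenitors dividing. Neurons of the dorsal midbrain, or tectum, are born from progenitors that line the ventricle, leave the cell cycle and switch on genes for axons and synapses. The 5 genes encode proteins of different kinds, and which cells of the midbrain express them was not measured here. Pcp4 encodes PEP-19, a small neuronal protein that binds calmodulin through an IQ motif and changes how calmodulin takes up and releases calcium. Arpp21 encodes a cAMP-regulated phosphoprotein with an R3H domain that binds RNA. Dlg2 encodes PSD-93, a scaffold of the postsynaptic density that gathers NMDA receptors and potassium channels. Tbc1d30 encodes a TBC-domain protein that switches off the small GTPase Rab8, which carries membrane cargo toward the cilium. Fibcd1 encodes a transmembrane receptor whose fibrinogen-like domain binds acetylated sugars.

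Pcp4 (ENSMUSG00000090223) lies on chr16:96467606-96525793, plus strand, of GRCm38 in the GENCODE M21 annotation, and its transcripts have at most 3 exons. The shortest annotated coding sequence, taken from GENCODE M21, is shown because the calmodulin-binding part of the protein fits in so short a frame. It has 189 bases and encodes 62 residues, and the capitals mark codons 46 to 56, the 11 codons of the IQ motif.
Pcp4 coding sequence: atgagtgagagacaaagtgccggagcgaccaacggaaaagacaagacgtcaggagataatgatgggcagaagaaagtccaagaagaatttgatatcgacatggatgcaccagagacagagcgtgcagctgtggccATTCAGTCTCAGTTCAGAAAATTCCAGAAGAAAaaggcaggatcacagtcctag

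Fibcd1 (ENSMUSG00000026841) lies on chr2:31813290-31846005, minus strand, with 1 annotated transcript of 7 exons and 1380 coding bases. Tbc1d30 (ENSMUSG00000052302) lies on chr10:121263820-121351278, minus strand, with up to 12 exons and a longest coding sequence of 2301 bases. Arpp21 (ENSMUSG00000032503) lies on chr9:112065091-112235938, minus strand, with 31 annotated transcripts, of which 14 are coding. Dlg2 (ENSMUSG00000052572) lies on chr7:90476672-92449247, plus strand, and its span of 1973 kb is longer than that of 99.9% of the 13841 coding genes tested and annotated. The other members spanned between 32.72 kb for Fibcd1 and 170.8 kb for Arpp21, against a median of 25.6 kb over those coding genes, so that all 5 were longer than the median gene. With several transcripts per gene and 1 value per gene in the table, isoforms could not be told apart.

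An intron of Arpp21 holds the gene of miR-128-2, a microRNA of neurons, at chr9:112118636-112118711 on the same strand and clear of the Arpp21 exons. Its mature sequence in RefSeq is shown because host gene and microRNA share a transcript, with the seed, bases 2 to 8, in capitals. The microRNA has no row of its own in the expression table, so no value is given for it.
mmu-miR-128-3p: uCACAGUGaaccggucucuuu

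Pcp4 had log2 values of 9.57, 9.29 and 9.44 in the floxed control libraries, of 9.12, 9.19 and 9.09 in the Cre control libraries and of 8.25, 8.42 and 8.55 in the Gpr161 cKO libraries. The 3 groups did not overlap, and the Cre control libraries stood between the others. The values are log2 expression values as deposited, normalised between libraries by the authors. Rows of low expression were drawn together, and whether folds at the levels of these 5 genes were affected is not known. Group means were 9.44 ± 0.14, 9.13 ± 0.053 and 8.41 ± 0.15 (SD, n = 3 each), and the Gpr161 cKO level was 49.1% of the floxed control level and 60.5% of the Cre control level. The differences were −1.03 (95% confidence interval −1.22 to −0.84) and −0.73 (−0.92 to −0.53) on the log2 scale. Pcp4 had the widest range within the Gpr161 cKO group of the 5 genes, 0.29, against 0.045 for Dlg2.

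Fibcd1 behaved most like Pcp4 in the size and the steps of its decrease. Its log2 values were 9.21, 9.12 and 9.05 in the floxed control, 8.68, 8.74 and 8.94 in the Cre control and 8.09, 8.05 and 8.21 in the Gpr161 cKO libraries. Again no group overlapped another. The mean level in Gpr161 cKO libraries, 8.12 ± 0.084 (SD, n = 3), was 49.6% of that in the floxed control (9.13 ± 0.079) and 62.9% of that in the Cre control (8.79 ± 0.14). On the log2 scale the differences were −1.01 (−1.18 to −0.84) and −0.67 (−0.84 to −0.50).

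Arpp21, the RNA-binding phosphoprotein gene, had log2 values of 8.18, 8.18 and 8.10 in the floxed control, 7.93, 7.99 and 8.10 in the Cre control and 7.28, 7.43 and 7.40 in the Gpr161 cKO libraries. Both controls met at their edges, with Cre control replicate 3 at the level of floxed control replicate 3, while the highest Gpr161 cKO library stood 0.50 below the lowest control. The means were 8.15 ± 0.049, 8.01 ± 0.089 and 7.37 ± 0.077 (SD, n = 3 each). The Gpr161 cKO level was 58.2% of the floxed control level and 64.4% of the Cre control level, a log2 difference of −0.78 (−0.93 to −0.64) and −0.64 (−0.78 to −0.49).

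Tbc1d30, the Rab8 regulator, had log2 values of 9.82, 9.69 and 9.90 in the floxed control, 9.65, 9.72 and 9.68 in the Cre control and 9.06, 9.05 and 9.11 in the Gpr161 cKO libraries. The controls overlapped and the Gpr161 cKO libraries lay within 0.053 of each other. With a pooled within-group SD of 0.0675, Tbc1d30 had the lowest spread of the 5 genes, and its gap of 0.55 to the controls was 8.08 such SDs wide. Its mean was 9.07 ± 0.029 in Gpr161 cKO, 9.80 ± 0.11 in floxed control and 9.68 ± 0.033 in Cre control libraries (SD, n = 3 each), so that 60.3% and 65.5% of the control levels were left. The log2 differences were −0.73 (−0.86 to −0.60) from the floxed control and −0.61 (−0.74 to −0.48) from the Cre control.

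Dlg2, the PSD-93 gene, had log2 values of 9.32, 9.21 and 9.16 in the floxed control, 9.16, 9.33 and 9.13 in the Cre control and 8.62, 8.64 and 8.60 in the Gpr161 cKO libraries. The controls were intermingled, the highest and the lowest control value both being from Cre control libraries, and the Gpr161 cKO libraries formed a tight group below them. The means were 9.23 ± 0.083, 9.21 ± 0.11 and 8.62 ± 0.022 (SD, n = 3 each). The level in Gpr161 cKO libraries was 65.5% of the floxed control and 66.5% of the Cre control level, with log2 differences of −0.61 (−0.76 to −0.46) and −0.59 (−0.73 to −0.44). Since the tissue was sequenced in bulk, fewer cells that express a gene and less RNA per cell cannot be told apart for any of the 5 genes.

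**Figure D1:**
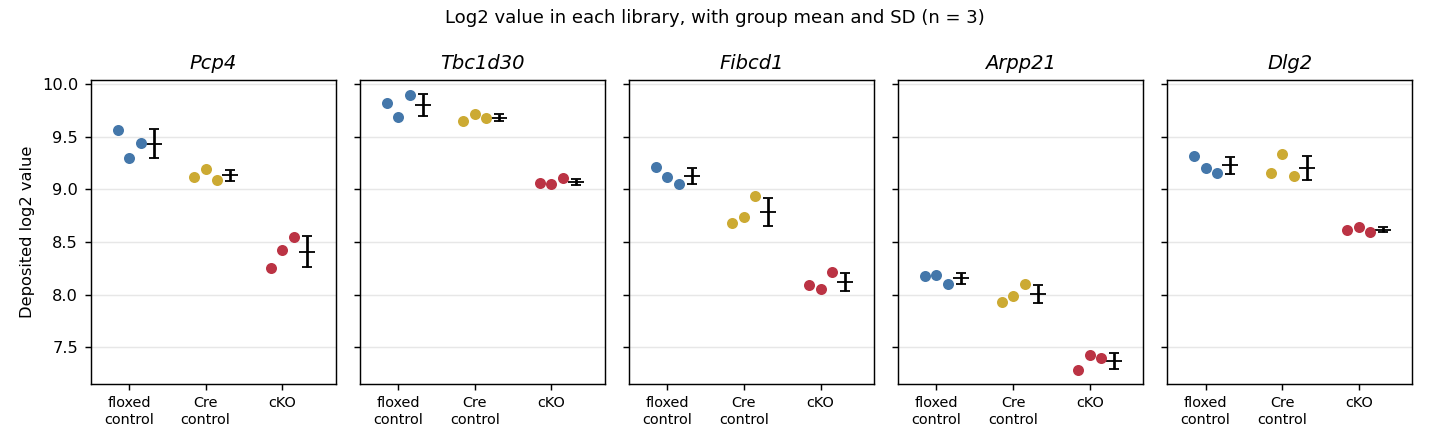
Deposited log2 value (vertical axis) of Pcp4, Tbc1d30, Fibcd1, Arpp21 and Dlg2 in each of the 9 libraries, by genotype, where points are libraries and bars the group mean with its SD (n = 3). In each panel the 3 Gpr161 cKO points lie below all 6 control points, and only for Pcp4 and Fibcd1 do the Cre control points also lie below all floxed control points.

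How clearly a gene separated was measured as the gap between its lowest control value and its highest Gpr161 cKO value. Of the 14029 genes, 1617 (11.5%) had all Gpr161 cKO values below all control values, and the 5 genes had gaps of 0.55 (Tbc1d30), 0.54 (Pcp4), 0.50 (Arpp21), 0.49 (Dlg2) and 0.47 (Fibcd1) on the log2 scale. The gap restates the rule that chose them. The order of the 14029 genes by gap placed them at ranks 3, 4, 6, 7 and 8. Pou4f2 with 0.74, Lhx9 with 0.62 and Tenm1 with 0.51 took the ranks between and above. Just outside stood Dpp10, which encodes a regulator of potassium channels, with a gap of 0.46, Draxin, which encodes an axon guidance protein, with 0.45, and Gabra2, which encodes a GABA-A receptor subunit, with 0.45. The step in gap from Fibcd1 to Dpp10 was narrower than that from Dlg2 to Fibcd1.

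By fold change alone the 5 genes were less uniform, and calling them among the most lowered holds better for the gap than for the fold. Even by gap, Pou4f2 and Lhx9 stood above all of the 5 genes. Ordered by the difference from the floxed control, Pcp4 ranked 10 and Fibcd1 ranked 11 among all genes tested, while Arpp21 ranked 54, Tbc1d30 ranked 77 and Dlg2 ranked 187. Ordered by the difference from the Cre control, the ranks were 6 for Pcp4, 16 for Fibcd1, 23 for Arpp21, 29 for Tbc1d30 and 39 for Dlg2. Tbc1d30 and Dlg2 thus stood much higher in the order of gaps than in that of folds. The adjusted test on all genes called 18.8% of genes lower and 19.5% higher in Gpr161 cKO than in floxed control libraries, and 4.85% lower and 4.86% higher than in Cre control libraries, by limma with Benjamini-Hochberg adjustment at 0.05.

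**Figure D2:**
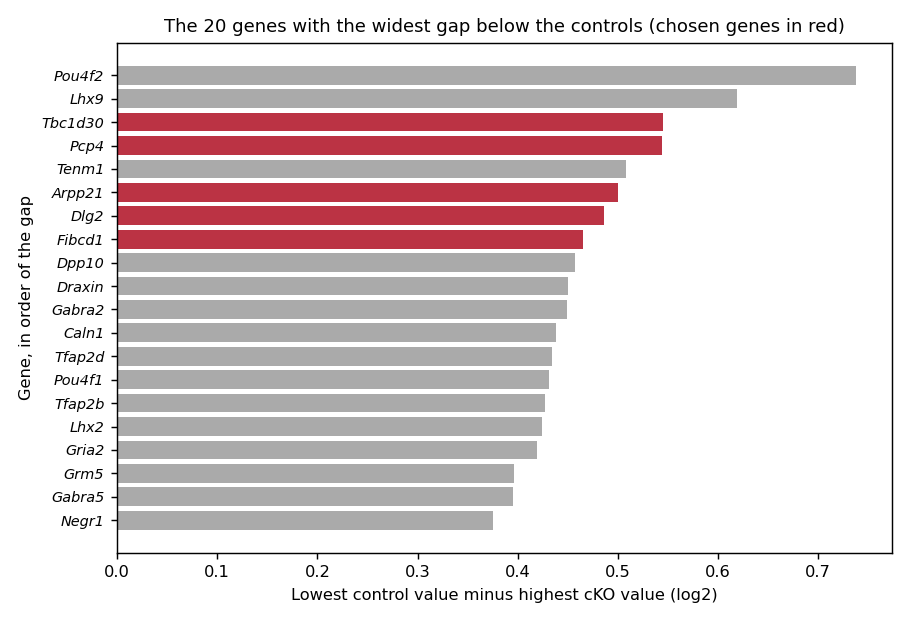
The 20 genes with the widest gap, in order, with the lowest control value minus the highest Gpr161 cKO value on the horizontal axis (log2) and the 5 chosen genes in red. The chosen genes sit between 0.47 and 0.55, below Pou4f2 at 0.74 and Lhx9 at 0.62, and the bars below them decline without a break.

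The comparison of both controls asked whether the transgene together with the loss of 1 Gpr161 allele already went with lower levels. All 5 genes had a lower mean in the Cre control, as did 50.4% of all genes tested and all 16 pan-neuronal genes. None of the 5 passed the adjusted test across all genes. In limma with Benjamini-Hochberg adjustment, the log2 difference was −0.34 for Fibcd1 (95% confidence interval −0.52 to −0.17, adjusted p = 0.1445) and −0.30 for Pcp4 (−0.49 to −0.11, adjusted p = 0.168). It was −0.15 for Arpp21 (−0.29 to −0.0027, limma adjusted p = 0.2797), −0.12 for Tbc1d30 (−0.25 to 0.0071, limma adjusted p = 0.3061) and −0.022 for Dlg2 (−0.17 to 0.12, limma adjusted p = 0.8779).

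Of the 5 genes, 3 had an unadjusted limma p under 0.05 (Fibcd1, Pcp4 and Arpp21), against 8.7% of all genes tested in this direction. For 2 of them, Fibcd1 and Pcp4, every Cre control library was below every floxed control library, against 12.1% of all genes. In this contrast limma with Benjamini-Hochberg adjustment called 7 genes higher (0.0499%) and 1 gene lower (0.00713%) in the Cre control over the whole table, and 2451 genes had an unadjusted p under 0.05.

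Expressed as a part of the whole distance from floxed control to Gpr161 cKO, the Cre control had covered 33.9% for Fibcd1, 29.4% for Pcp4, 18.7% for Arpp21, 16.4% for Tbc1d30 and 3.62% for Dlg2. The Cre control levels were 78.9%, 81.1%, 90.3%, 92.0% and 98.5% of the floxed control levels in that order. The median of the pan-neuronal genes differed by −0.473 between Gpr161 cKO and floxed control libraries. Between Gpr161 cKO and Cre control libraries it differed by −0.256. The Cre control had thus covered a larger part of the distance for that median than for any of these genes. A step between the controls was therefore not particular to them, and the rule that chose them favours a small step. The intervals allow a decrease of up to 0.17 for Dlg2 and of up to 0.52 for Fibcd1, and the difference of these steps between genes was not tested.

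**Figure D3:**
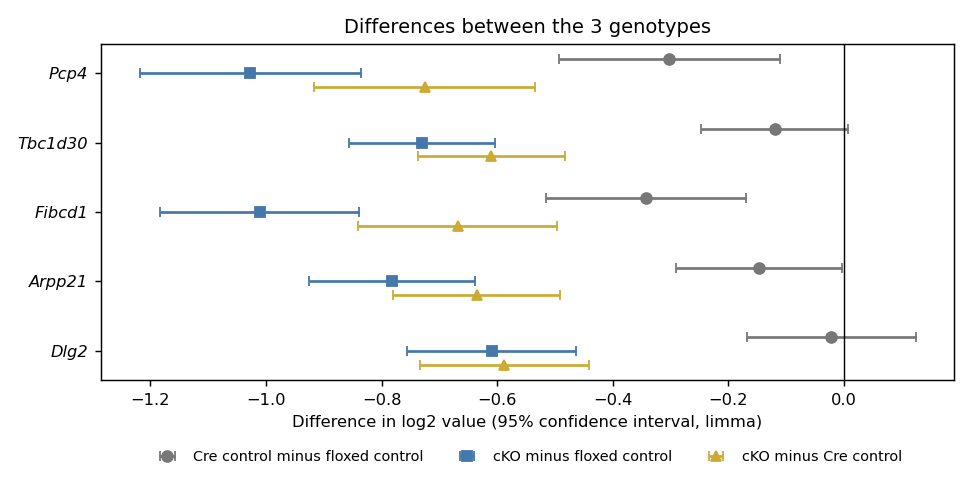
Log2 difference between genotypes for the 5 genes (horizontal axis), with 95% confidence intervals from limma. The intervals of the Cre control against the floxed control (grey) exclude 0 for Pcp4, Fibcd1 and, by 0.0027, Arpp21 before adjustment and reach 0 for Tbc1d30 and Dlg2, and both Gpr161 cKO contrasts lie between −0.44 and −1.22 for every gene. The Gpr161 cKO intervals take no account of how the genes were chosen and are not tests.

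General markers of neurons were lower in the same libraries. All 16 pan-neuronal genes (among them Tubb3, Map2, Dcx, Snap25 and Syt1) were called lower in Gpr161 cKO than in floxed control libraries by limma, with a median log2 difference of −0.508, against a median of 0.0112 over all genes tested. Against the Cre control 6 of the 16 were called lower, with a median of −0.254, and this count ran from 0 when the fit held only the 6 libraries compared to 12 without Cre control replicate 1. Between the controls their median was −0.212 with 0 of 16 called and 12 at an unadjusted limma p under 0.05, which 17.5% of all genes had. The summed level of the 16 genes, in cpm of each library's linear total, was 7748 to 8317 in floxed control, 6039 to 7357 in Cre control and 5160 to 5934 in Gpr161 cKO libraries.

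Markers of dividing progenitors moved the other way. All 12 proliferation genes, such as Mki67 and Top2a, were called higher in Gpr161 cKO than in floxed control libraries and 6 were called higher than in Cre control libraries by limma, with medians of 0.517 and 0.252. That second count ran from 1, when the fit held only the 6 libraries compared or when cKO replicate 1 or 2 or Cre control replicate 2 or 3 was left out, to 11 without Cre control replicate 1. Of 12 neural progenitor genes, such as Sox2 and Nes, limma called 7 higher against the floxed control and 4 higher than in the Cre control, and called none lower. The 4 ran from 2, with only the 6 libraries compared or without cKO replicate 1, to 6 without Cre control replicate 1, and with only the 6 libraries compared 1 gene was called lower relative to the floxed control. Their summed level was 3442 to 3581, 3472 to 3750 and 3858 to 4070 cpm in floxed control, Cre control and Gpr161 cKO libraries. Between the controls, 0 of the 12 proliferation genes were called, but all 12 were higher in the Cre control at an unadjusted limma p under 0.05. Their median was 0.229. Of the 12 neural progenitor genes, 2 had such a p, with a median of 0.0393 and 0 called. The part of these marker shifts in the levels of the 5 genes was not tested.

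Taking the median of the 16 pan-neuronal genes off each library, log2 differences from the floxed control of −0.554 for Pcp4, −0.538 for Fibcd1, −0.309 for Arpp21, −0.257 for Tbc1d30 and −0.136 for Dlg2 were left. From the Cre control, −0.470, −0.413, −0.380, −0.354 and −0.332 were left in the same order. The pan-neuronal median itself differed by −0.473 between Gpr161 cKO and floxed control libraries and by −0.256 between Gpr161 cKO and Cre control libraries. The gap stayed above 0 for Pcp4 (0.292), Fibcd1 (0.244), Arpp21 (0.135) and Tbc1d30 (0.0978), whereas for Dlg2 it became −0.136, so that its Gpr161 cKO and control libraries overlapped once general neuronal markers were taken off. Genes chosen for a wide gap are likely to keep one here, and other genes were not compared in this way. Over the 9 libraries, Pearson correlations with the mean of the pan-neuronal genes were 0.903 for Pcp4, 0.907 for Fibcd1, 0.878 for Arpp21, 0.865 for Tbc1d30 and 0.779 for Dlg2, and with the mean of the progenitor genes they lay between −0.920 and −0.855. The libraries form the 3 genotypes, so these values largely restate the group differences. Within genotypes the correlation with the pan-neuronal mean was 0.611 for Arpp21, 0.546 for Tbc1d30, 0.519 for Pcp4, 0.470 for Fibcd1 and 0.106 for Dlg2. With the progenitor mean it was weak and of mixed sign within genotypes. It was 0.337 for Tbc1d30, 0.19 for Fibcd1, −0.111 for Pcp4, −0.203 for Arpp21 and −0.285 for Dlg2.

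**Figure D4:**
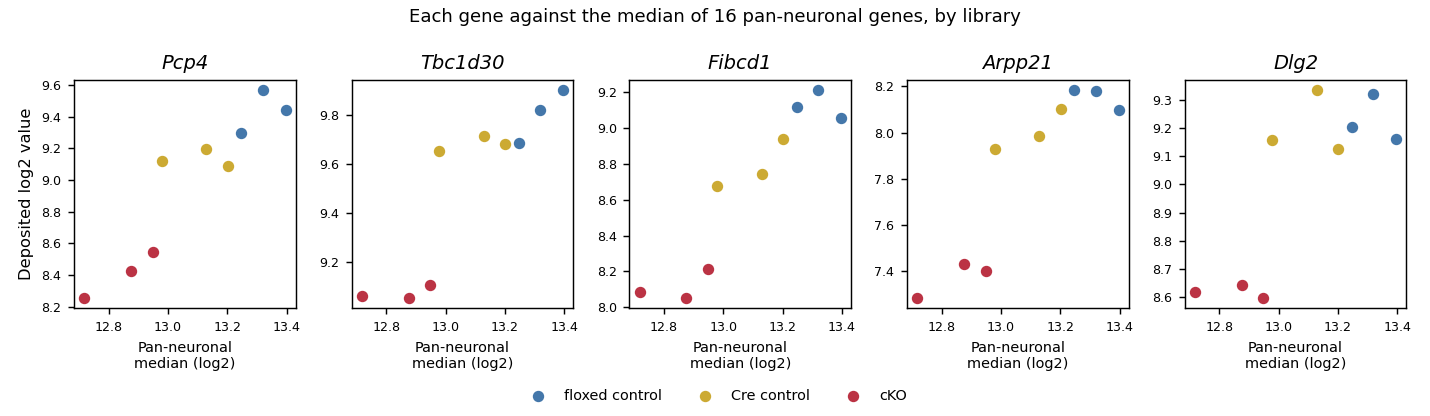
Deposited log2 value of each of the 5 genes (vertical axis, scaled per panel) against the median log2 value of 16 pan-neuronal genes in the same library (horizontal axis), with 1 point per library coloured by genotype. The Gpr161 cKO libraries hold the lowest pan-neuronal medians, 12.72 to 12.95, against 12.98 to 13.20 in Cre control and 13.25 to 13.40 in floxed control libraries, and the vertical step of each gene between Cre control and Gpr161 cKO libraries is larger than the horizontal one.

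Markers of other cells and regions were read in the same way. All 12 midbrain identity genes were detected, of which limma called 6 lower and 2 higher in Gpr161 cKO than in floxed control libraries and 2 lower and 2 higher than in Cre control libraries. The 2 higher than in Cre control libraries became 0 without Cre control replicate 2. Of 10 forebrain markers 8 were tested, and their median difference from the floxed control was −0.0256, with 2 called lower, Lhx2 (−0.60) and Neurod6 (−0.91), and with Lhx2 alone called lower against the Cre control (−0.67). Both were named after their values were seen, and the summed level of the list, 178.6 to 190.5 cpm in floxed control, 164.1 to 190.1 in Cre control and 134.7 to 137.2 in Gpr161 cKO libraries, follows them: the other 6 differed from the floxed control by −0.18 to 0.11, and none was called. Hindbrain markers (8 of 10 tested) summed to 40.7 to 55.83, 31.81 to 41.49 and 35.73 to 36.86. Limma called 4 lower against the first control (1 under a filter of at least 5 cpm). Against the second it called 0, and 0 had an unadjusted p under 0.05. Between the controls their median was −0.51, with 0 called and 5 of 8 at an unadjusted limma p under 0.05.

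Blood and meningeal genes were higher in Gpr161 cKO libraries. Of 10 erythroid genes in the table, 7 were called higher than in floxed control and 5 higher than in Cre control libraries by limma, their sum being 5663 to 9675, 6762 to 7961 and 8766 to 16780 cpm. The first count fell to 1 without cKO replicate 1 and the second to 0 without Cre control replicate 2. Of 10 genes of meninges and mesenchyme, 8 were called higher than in floxed control libraries (3 without cKO replicate 1) and 0 than in Cre control libraries (2 at an unadjusted limma p under 0.05), with sums of 1126 to 2073, 1475 to 2403 and 2387 to 2507. Endothelial genes (9 tested) had 5 higher calls against the floxed control (1 without floxed control replicate 1) and 0 against the Cre control (1 unadjusted), summing to 247.3 to 317.6, 273.4 to 341.4 and 321.2 to 344.8. Microglial genes (8 tested) had 1 higher call against the floxed control (4 without floxed control replicate 2) and 0 against the Cre control (0 unadjusted), summing to 86.46 to 100.8, 98.93 to 102.8 and 99.02 to 108.7. No marker of these lists that was in the table was at 0 in all libraries, and the part of these cells in the levels of the 5 genes was not tested.

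The 5 genes followed each other across the 9 libraries, with Pearson correlations between 0.907 (Fibcd1 with Dlg2) and 0.977 (Fibcd1 with Arpp21) over the 10 pairs. All pairs share the libraries and the rule that chose the genes. Within genotypes, with the group means taken off, the correlations ranged from −0.211 (Tbc1d30 with Arpp21) to 0.696 (Fibcd1 with Arpp21) with a median of 0.157, and 8 of 10 were above 0. Pcp4 and Tbc1d30 came next with 0.580.

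Pearson correlations over the 9 libraries hold the group differences that chose the members. High values with other genes therefore largely restate the rule and show no link particular to a member. Among all genes tested, the 3 with the most similar profile by this correlation differed from member to member. For Pcp4 they were March1 (0.998), Grip2 (0.993) and Ankrd44 (0.993), Grip2 encoding a scaffold of AMPA receptors. For Tbc1d30 they were Draxin (0.989), Prdm12 (0.987) and Dpp10 (0.987), Prdm12 encoding a transcription factor of sensory and neural tube neurons. For Arpp21 they were Btbd3 (0.993), Gabra5 (0.990) and Usp49 (0.990), Btbd3 being known for dendrite orientation and Gabra5 for a GABA-A receptor subunit. For Fibcd1 they were Gpatch2l (0.992), Tceal6 (0.990) and Hook1 (0.989), and for Dlg2 they were Npepps (0.980), Caln1 (0.979) and Pou4f2 (0.979), Pou4f2 encoding a transcription factor of tectal and retinal neurons. Draxin and Dpp10 also stood just outside the 5 genes in the order of gaps, and no gene was among the 3 most alike of more than 1 member.

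The relatives and binding partners of PSD-93 were the family list with the most lower calls. Of 28 tested genes of postsynaptic scaffolds, receptors and channels other than Dlg2, limma called 19 lower and 1 higher in Gpr161 cKO than in floxed control libraries, with a median log2 difference of −0.300, and called 6 lower and 0 higher than in Cre control libraries, with a median of −0.182. These are 67.9% and 21.4% lower calls, against 18.8% and 4.85% of all genes. Of the pan-neuronal genes, 100% and 37.5% were called lower, with medians of −0.508 and −0.254. Every family list had smaller shares of lower calls than these, so such calls were not particular to the PSD-93 list. The count of 6 ran from 1 without Cre control replicate 3 to 17 without Cre control replicate 1. Kcna4, a potassium channel subunit, differed by −0.62 from the floxed control (limma adjusted p = 6.907e-04) and by −0.51 from the Cre control (limma adjusted p = 0.008962), and it was called against both under every alternative. Its log2 values were 7.73, 7.69 and 7.58 in floxed control and 7.72, 7.42 and 7.52 in Cre control libraries, which overlapped, and no Gpr161 cKO library was above 7.09.

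Nlgn1, a synaptic adhesion molecule, differed by −0.53 and −0.35 from the floxed and the Cre control, with limma adjusted p-values of 0.001152 and 0.0261. Shank2, a postsynaptic scaffold, differed by −0.49 and −0.33 (limma adjusted p = 5.846e-04 and 0.01524), and Dlgap1, which links PSD-95 proteins to Shank, by −0.46 and −0.27 (limma adjusted p = 0.001541 and 0.04632). Each of these 3 calls against the Cre control was lost when Cre control replicate 3 was left out and likewise without cKO replicate 1, where limma's adjusted p was 0.1063 for Nlgn1, 0.06203 for Shank2 and 0.1595 for Dlgap1, and those of Nlgn1 and Dlgap1 also without other libraries. The paralogs of Dlg2 did not share its size of difference. Dlg4, the PSD-95 gene, was lower by −0.35 than in the floxed control (limma adjusted p = 0.001368) and differed by −0.14 from the Cre control (limma adjusted p = 0.1166). Dlg3 differed by −0.13 and −0.068 (limma adjusted p = 0.02264 and 0.2682), and Dlg1 by 0.16 and −0.0093 (limma adjusted p = 0.03146 and 0.9244), whose calls against the floxed control were lost without any 1 of 5 libraries for Dlg3 (adjusted p up to 0.08706) and of 6 for Dlg1 (up to 0.1128), and for Dlg1 also when libraries were centred on their medians.

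Of 23 calmodulin genes and calmodulin-binding proteins other than Pcp4, limma called 13 lower (56.5%) and 2 higher (8.7%) relative to the floxed control. By the same test, 18.8% of all genes were lower and 19.5% higher. Relative to the Cre control, 3 were called lower (13%) and 1 higher (4.35%), beside 4.85% and 4.86% of all genes. The median log2 difference of Gpr161 cKO libraries was −0.204 from floxed control and −0.110 from Cre control libraries. The lower calls against the Cre control ran from 0 with only the 6 libraries compared to 9 without Cre control replicate 1. Camk2b, a neuronal calmodulin-dependent kinase, differed by −0.82 and −0.49 (limma adjusted p = 0.001706 and 0.04781). Gap43, a growth cone protein that binds calmodulin through an IQ motif as PEP-19 does and also stands in the pan-neuronal list, differed by −0.58 and −0.37 (limma adjusted p = 9.612e-04 and 0.0266). Iqgap2, a scaffold with IQ motifs, was higher by 0.31 and 0.22 (limma adjusted p = 0.002402 and 0.03613), and Camk2d, a kinase of many tissues, differed by −0.21 and −0.24 (limma adjusted p = 0.02293 and 0.04183).

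The calls of Camk2b, Gap43, Iqgap2 and Camk2d against the Cre control were lost without cKO replicate 1, with limma adjusted p-values of 0.1686, 0.1002, 0.1389 and 0.1554, and also without Cre control replicate 3 and further libraries. That of Camk2d against the floxed control was lost without floxed control replicate 1 or cKO replicate 1 or 3 (up to 0.08678). Pcp4l1, the closest relative of Pcp4, stood higher in the Gpr161 cKO libraries by 0.32 than in the floxed control and by 0.35 than in the Cre control, without passing the test (limma adjusted p = 0.1218 and 0.1578). Its libraries spread widely, with an SD of 0.32 in the floxed control.

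The relatives of Arpp21, Tbc1d30 and Fibcd1 had medians closer to that of the whole table than the PSD-93 and calmodulin lists had. Of 15 cAMP-regulated phosphoproteins, protein kinase A subunits and R3H proteins, limma called 6 lower (40%) and 1 higher (6.67%) against the floxed control. Of all genes, 18.8% and 19.5% were called so. Against the Cre control it called none of the 15, beside 4.85% lower and 4.86% higher of all genes, and 2 had an unadjusted limma p under 0.05. The 6 fell to 3 without floxed control replicate 3, the 1 to 0 without floxed control replicate 2, and 3 were lower and 1 higher than in the Cre control without Cre control replicate 1. The medians were −0.109 and −0.0323 beside 0.0112 and 0.0117 over all genes. R3hdm1, an R3H relative of Arpp21, differed by −0.037 and −0.0077 (limma adjusted p = 0.7005 and 0.954) and R3hdm2 by −0.19 and −0.046 (limma adjusted p = 0.009891 and 0.5261). Arpp19, a phosphoprotein that inhibits the phosphatase PP2A in mitosis, was higher by 0.19 than in the floxed control (limma adjusted p = 0.01774, lost without floxed control replicate 2 or 3 or cKO replicate 1 or 2, with up to 0.06067) and differed by 0.066 from the Cre control (limma adjusted p = 0.4305).

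Of 42 TBC-domain proteins and Rab8 partners, limma called 12 lower (28.6%, against 18.8% of all genes) and 4 higher (9.52%, against 19.5%) relative to the floxed control. The 12 fell to 7 without floxed control replicate 3 and the 4 to 1 without floxed control replicate 1. Against the Cre control 2 were called lower (4.76%, beside 4.85% of all genes), a count that ran from 0 with only the 6 libraries compared to 6 without Cre control replicate 1, and the medians were −0.0568 and −0.0162. Those named by their calls against both controls were Rabgap1l, with differences of −0.52 and −0.27 (limma adjusted p = 5.715e-04 and 0.03171), and Tbc1d19, with −0.17 and −0.18 (limma adjusted p = 0.01163 and 0.03306). Of 15 fibrinogen-domain proteins, limma called 3 lower (20%) and 2 higher (13.3%) relative to the floxed control, close to the shares of all genes, and the 2 became 0 without floxed control replicate 1. Against the Cre control 2 were called lower (13.3%, beside 4.85% of all genes), from 0 with only the 6 libraries compared to 4 without Cre control replicate 1, and the medians were 0.0380 and −0.0403. Called against both controls were Tnr, an extracellular matrix protein of the nervous system, with −0.54 and −0.52 (limma adjusted p = 0.004506 and 0.02285), and Cntnap2, an axonal adhesion molecule, with −0.25 and −0.20 (limma adjusted p = 0.002658 and 0.03134). The calls of Rabgap1l, Tbc1d19, Tnr and Cntnap2 against the Cre control were each lost without Cre control replicate 3, without cKO replicate 1 and without further libraries, limma's adjusted p reaching 0.1091, 0.1118, 0.09408 and 0.117 in that order. No call between both controls was made in any of the 15 lists by limma. An unadjusted p under 0.05 was held by 17.5% of all genes in that contrast, and by 12 of the PSD-93 relatives (42.9%), 6 calmodulin genes (26.1%), 4 genes of the Arpp21 list (26.7%), 8 of the Tbc1d30 list (19.0%) and 1 of the Fibcd1 list (6.67%).

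**Figure D5:**
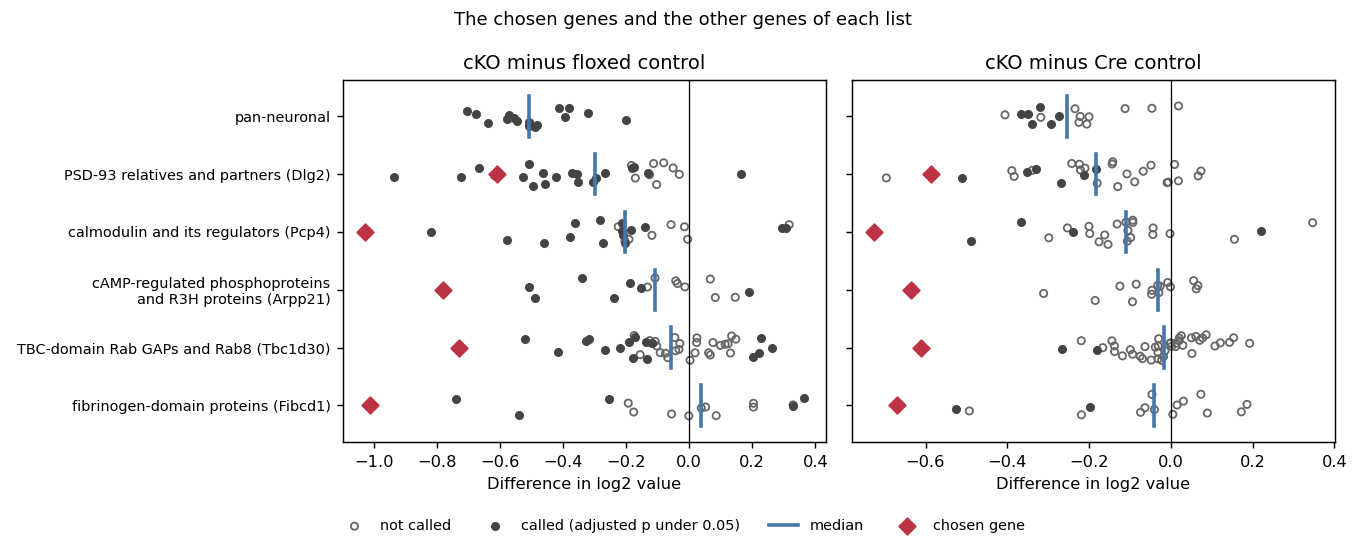
Log2 difference of Gpr161 cKO libraries from the floxed control (left) and the Cre control (right) for each other gene of 6 lists, filled where called by limma at an adjusted p under 0.05, with the list median as a bar and the chosen gene of each family as a diamond. The medians run from −0.508 for pan-neuronal genes to 0.0380 for fibrinogen-domain proteins on the left, and the diamonds of Pcp4, Arpp21, Tbc1d30 and Fibcd1 lie beyond the lowest other gene of their own list on both sides. Their choice by these same values favours such a place. Dlg2, at −0.61 and −0.59, does not lie so, as its list reaches −0.937 and −0.696.

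Promoter sequences of the 2 genes with the largest differences from the floxed control are shown because each has 1 annotated window. They run from 250 bases before to 50 bases after the start in RefSeq on GRCm38.p6, and the capitals mark the E-box CANNTG, the motif of proneural bHLH factors, on either strand. Pcp4 is at chr16:96467356-96467655, plus strand, and Fibcd1 at chr2:31845956-31846255, minus strand.
Pcp4: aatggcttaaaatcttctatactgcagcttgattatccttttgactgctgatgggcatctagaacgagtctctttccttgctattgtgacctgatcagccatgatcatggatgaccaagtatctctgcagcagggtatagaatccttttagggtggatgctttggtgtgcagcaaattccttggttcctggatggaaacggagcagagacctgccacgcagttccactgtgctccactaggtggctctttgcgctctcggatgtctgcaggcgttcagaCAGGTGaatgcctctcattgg
Fibcd1: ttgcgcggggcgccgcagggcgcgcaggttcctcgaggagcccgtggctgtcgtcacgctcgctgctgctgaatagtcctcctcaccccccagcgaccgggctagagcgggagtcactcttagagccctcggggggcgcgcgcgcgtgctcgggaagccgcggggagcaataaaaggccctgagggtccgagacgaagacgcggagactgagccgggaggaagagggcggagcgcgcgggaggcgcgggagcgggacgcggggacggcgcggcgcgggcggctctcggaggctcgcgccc

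The 2 windows were unlike each other, with a GC content of 48.7% for Pcp4 and 74.3% for Fibcd1 around a median of 52.7% over 32851 windows. Pcp4 held 1 E-box and Fibcd1 held none, while 72.3% of all windows held at least 1. All 9 windows of Arpp21, some of which overlap, and 2 of 3 windows of Dlg2 held an E-box. TATAAA stood in 1 Dlg2 window and in 13.6% of all windows. Neither the cAMP response element TGACGTCA, held by 1.79% of all windows, nor the GLI motif GACCACCCA, held by 0.253%, stood in any window of Pcp4, Fibcd1, Arpp21 or Dlg2, with both strands searched. A match of letters is a description of the window and does not show binding.

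Exons of 4 of the 5 genes overlap another annotated gene, and no source used here states that strand was kept in counting. Pcp4 shares exon bases with a second annotated Igsf5 locus on the same strand, at chr16:96361794-96525580, and the Igsf5 row of the table held low log2 values of 2.27 to 2.39. Tbc1d30 shares exon bases with the antisense gene Gm48435, Arpp21 with the opposite-strand noncoding RNA 2900079G21Rik, and Dlg2 with Gm45131 and Gm45159. Reads of such partners cannot be told apart from those of the gene where they overlap.

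The targeted gene did not separate the groups in these libraries. Gpr161 had mean log2 values of 11.77 ± 0.030 in floxed control, 11.88 ± 0.096 in Cre control and 11.88 ± 0.12 in Gpr161 cKO libraries (SD, n = 3 each), with a limma adjusted p of 0.2231 for Gpr161 cKO against floxed control and 0.9982 against Cre control. The level of the whole gene thus gives no check of the labels, and directions are those of the libraries labelled Gpr161 cKO. Linear totals of the deposited values, 2.66099e+07 to 2.74966e+07 per library, were already normalised, and sequencing depth is unknown.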

How the data were processed

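The midbrain libraries were made from poly-A RNA with the NEBNext Ultra RNA kit and sequenced on an Illumina HiSeq. The authors deposited 1 table of log2 expression values per gene, normalised between libraries; the transformation was not named in the sources used here. The submitters' processing notes list FastQC 0.10.1, kallisto 0.46.1, DESeq2 and mm10, without their roles. The table had 27360 rows, of which 5764 without a gene name, holding 0.334 to 0.396% of the linear sum, 4840 at 0 in every library and 118 repeated names were left out. Rows of low expression were drawn together, with a median SD over libraries of 0.0037 for means under 0 against 0.122 for means of 6 to 8. Depth is unknown, so no counting interval is given.

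Genes with at least 1 cpm of the linear sum in at least 3 libraries were kept (14029). A mean per genotype was fitted over all 9 libraries with limma 3.58.1 in R 4.3.3 (trended empirical Bayes, two-sided, Benjamini-Hochberg over all genes, called at 0.05), after tests on simulated data. Confidence intervals are 95% and unadjusted, and those of the 5 genes in Gpr161 cKO contrasts take no account of how the genes were chosen. The 5 genes and all gene lists were chosen with earlier results of these data known. From each family list, the genes called against both controls were named, at most 4 by size, with fixed close relatives; for each member the 3 genes most alike and the genes next to it by gap were named. Figures were drawn with matplotlib 3.10.9. Alternatives covered the filter, scaling, variance trend, libraries in the fit, a fold limit, a replicate block and leaving out each library.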

Additional observations from a re-analysis of the deposited data

How the results depend on the processing

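For the 5 genes the direction in Gpr161 cKO libraries is fixed by the way they were chosen. Without 1 library, the size of the difference from the floxed control ran from −1.10 to −0.95 for Pcp4, −1.06 to −0.97 for Fibcd1 and −0.64 to −0.56 for Dlg2. Between both controls none of the 5 passed limma's adjusted test under any alternative, and Dlg2 changed sign without floxed control replicate 1 or without Cre control replicate 1 or 3 (−0.086 to 0.024 over all libraries left out). The same held for Tnr (−0.12 to 0.084), Pcp4l1 (−0.21 to 0.084), Tbc1d19 (−0.012 to 0.043), R3hdm1 (−0.099 to 0.055) and Camk2d (−0.0075 to 0.062) between both controls, and for Dlg1 (−0.054 to 0.039) and R3hdm1 (−0.093 to 0.062) between Gpr161 cKO and Cre control. Counts of calls over all genes depended on the libraries. Without 1 library, genes higher and lower numbered 1 to 52 and 0 to 17 between both controls, 1834 to 3383 and 1772 to 3169 for Gpr161 cKO against floxed control, and 140 (without cKO replicate 1) to 1533 (without Cre control replicate 1) and 97 to 1759 against Cre control. With a fold above 1.5 asked for besides the test, the counts were 4 and 0, 188 and 222, and 47 and 32. With no filter, 434 and 439 were called against Cre control, and with only the 6 libraries compared 225 and 212, with 3 and 0 between both controls. Lower calls between both controls were 0 with no filter or quantile normalisation and 4 without the variance trend. Causes were not tested. With the replicate number as a block, counts were 8 and 1, 2898 and 2785, and 846 and 928, and limma's adjusted p between both controls was 0.1317 for Pcp4 and 0.09217 for Fibcd1, so that no call of the 5 genes changed. Proliferation genes higher than in Cre control numbered 11 with the block and fibrinogen-domain genes higher than in floxed control 4. Libraries of the same number correlated at −0.0272 to 0.260 (median 0.102) and those of different numbers at −0.282 to 0.161 (median −0.0526). The ranges overlapped, but libraries of the same number were somewhat more alike. The labels name no pairing, so the main fit took none, and whether libraries of the same number shared a batch or litter is not known.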

Other observations

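Among the 20 genes with the widest gap, chosen after their values were seen and given without a test, several encode transcription factors of developing neurons. The difference of Gpr161 cKO libraries from the floxed control was −0.97 for Pou4f2, −0.85 for Lhx9, −0.80 for Tfap2b, −0.71 for Tfap2d, −0.60 for Lhx2 and −0.60 for Pou4f1 on the log2 scale, and from the Cre control −0.89, −0.80, −0.57, −0.68, −0.67 and −0.61 in that order. Cre control and floxed control means were 11.10 and 11.10 for Pou4f1, 11.75 and 11.80 for Lhx9 and 12.45 and 12.69 for Tfap2b.

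Some of the same 20 genes encode receptors, a group noticed after the fact and not tested. Gria2, an AMPA receptor subunit, differed by −0.94 and −0.65 from the floxed and the Cre control, Grm5, a metabotropic glutamate receptor, by −0.93 and −0.69, Gabra2 by −0.66 and −0.61 and Gabra5 by −0.58 and −0.53. Negr1, a neuronal adhesion molecule, differed by −0.91 and −0.63.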
